A study of Mus musculus with 4 samples.

Results

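The genes described here are the aminoacyl-tRNA synthetases, the enzymes that load each amino acid onto its transfer RNA, together with Aimp1, Aimp2 and Eef1e1, the non-enzymatic scaffold proteins of the multi-synthetase complex. They were selected by gene symbol in the annotation of the array, 1 amino acid letter or Ep followed by ars or rs and, where present, 1, 2, a or b. The rule found 29 genes among 12393 genes that a probe set names singly: 18 cytosolic synthetases, 8 mitochondrial synthetases, whose symbols end in 2, and 3 scaffolds. Another 5 genes match the letters without being synthetases and were set aside: Irs1 and Irs2, the insulin receptor substrates, Mrs2, a mitochondrial magnesium channel, Rrs1, a ribosome assembly factor, and Arsa, an arylsulfatase. The group was chosen because of the low Aimp2 signal in the transgenic muscle, so the values of Aimp2 are a description with no test. The other members were taken by symbol. Symbols are those of the array annotation, in which Aars is the gene now called Aars1, and likewise for the others.

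MCK-PPARa mice carry a transgene that raises the nuclear receptor PPARα in muscle, driven by the promoter of muscle creatine kinase (MCK), which is active in striated muscle fibres. NTG mice are their non-transgenic littermates, wild type at this transgene. Total RNA came from gastrocnemius, the large calf muscle, and was measured on 4 arrays, 2 of MCK-PPARa and 2 of NTG mice, which the series describes as 2 mice of each genotype. No age is given. Beyond a replicate number the labels do not link the arrays to animals, and the p-values reflect the spread of these samples alone, which may be technical. In whole muscle, fewer cells of a type and less RNA per cell cannot be told apart.

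Each synthetase recognises 1 amino acid and its transfer RNAs, so charging supplies every step of protein synthesis. In mammals the cytosol and the mitochondrion use separate sets of these enzymes, nearly all encoded by separate nuclear genes. The glycyl (Gars) and lysyl (Kars) enzymes serve both compartments from 1 gene each and were counted as cytosolic. Several cytosolic synthetases sit in the multi-synthetase complex, which Aimp1, Aimp2 and Eef1e1 hold together. Aimp2 is its central scaffold, and Eef1e1 links the complex to translation elongation. Uncharged transfer RNA is sensed by the kinase Gcn2 (Eif2ak4), whose action on the initiation factor Eif2 raises the translation of the transcription factor Atf4, and many cytosolic synthetase genes are known Atf4 targets.

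The targeted gene read in the direction of the labels: Ppara had signals of 7969 and 15226 in MCK-PPARa replicates 1 and 2, against 633 and 2674 in NTG replicates 1 and 2. The authors' scaling gave every array a 2% trimmed mean of 1500.6 to 1500.7, and array medians lay between 582 and 700.3. The 5′ control for 18S ribosomal RNA separated the arrays by replicate number, with 2313 and 44.7 in MCK-PPARa replicates 1 and 2 and 2202 and 28.9 in NTG replicates 1 and 2. The 12 skeletal muscle markers summed to 1407415 and 1194263 in MCK-PPARa and to 1297412 and 1192002 in NTG muscle, and all 12 passed the filter on dim probe sets, which leaves out those below the 40th percentile in mean log2 signal. The 5 adipocyte markers measured summed to 28942 and 17917 in MCK-PPARa against 7935 and 7615 in NTG muscle, with Lep, which encodes leptin, at 76.9 and 124.5 against 102 and 97.2. Most of the sum was Fabp4, a fatty acid binding protein, at 21784 and 10839 against 4186 and 3820.5. All 4 adipocyte markers tested were above 0 in their log2 difference (median 1.08). An unadjusted limma p under 0.05 was found for 3 of them, beside 5.79% of all genes tested. None passed an adjusted p of 0.05 (limma adjusted p from 0.20 to 0.97). Endothelial markers summed to 14155 and 14652 in MCK-PPARa against 9968 and 11420 in NTG muscle. Macrophage and immune markers summed to 9071 and 9981 against 7353 and 8126. The fibroblast and matrix and the red blood cell sums were also higher without overlap, while nerve, smooth muscle and tendon sums overlapped. Of the 6 fibroblast and matrix markers, 4 were above 0 and 2 below. Pdgfra was lower without overlap, at 803 and 762 in MCK-PPARa against 1146 and 2011 in NTG muscle. The collagens Col1a1 and Col1a2 were the brightest in that sum. Most of the red blood cell sum was Alas2, and Hba-a1 overlapped. Markers of slow fibres were lower in MCK-PPARa muscle, with Myh7, the slow myosin heavy chain, at 2068 and 836 against 12696 and 6606. The part of fat cells and other cell types, of fibre type and of the replicate number in the results was not tested.

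Differences are given as MCK-PPARa minus NTG on the scale log2(signal + 64.2), with the standard error of the limma fit (SE, n = 2 per group) and p-values adjusted over the 8400 genes tested. The number of arrays limits the precision: the smallest two-sided p that an exact permutation test allows with 2 samples on each side is 0.333. Of the 29 members, 28 passed the filter on dim probe sets. Farsa, the alpha subunit of phenylalanyl-tRNA synthetase, did not, with 403 and 468.5 in MCK-PPARa and 140 and 810 in NTG muscle.

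Aimp2 had the largest difference of the 29 genes. Its brighter probe set read 12411 and 11395 in MCK-PPARa muscle and 37387 and 31632 in NTG muscle, or 11903 ± 719 and 34509 ± 4069 (mean ± SD, n = 2 each). The difference was -1.53 ± 0.29 (SE), or 2.88-fold lower in MCK-PPARa muscle. Within the replicate 1 arrays it was -1.59, and within the replicate 2 arrays -1.47. A second Aimp2 probe set read 7683 and 13192 in MCK-PPARa and 26566 and 33865 in NTG muscle, a difference of -1.57. Both probe sets thus placed each transgenic array below each control array.

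**Figure D1:**
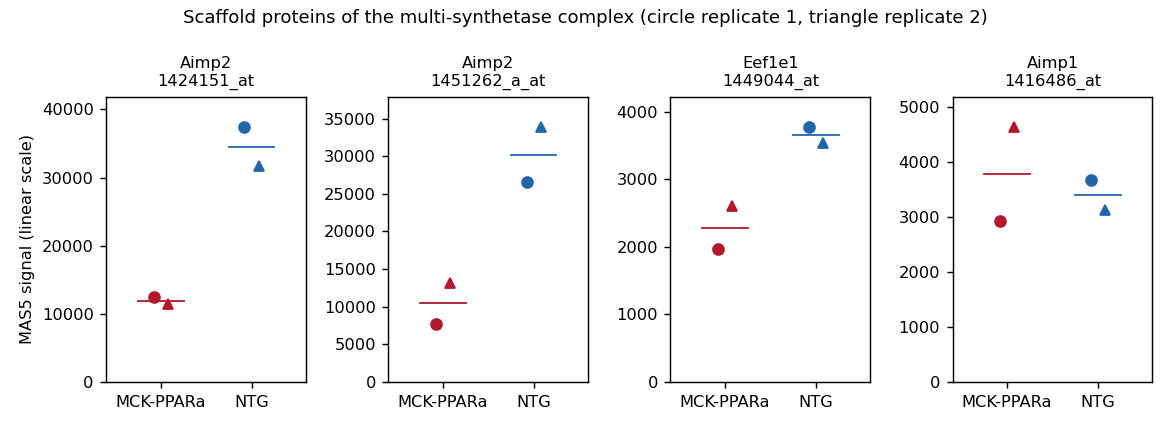
MAS5 signal (linear scale, starting at 0) of the scaffold genes on each of the 4 arrays, MCK-PPARa left and NTG right in each panel; circles are replicate 1, triangles replicate 2 and lines group means. Both Aimp2 probe sets and Eef1e1 show MCK-PPARa arrays below both NTG arrays, and Aimp1 shows overlapping groups.

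Aimp2 lies on the minus strand of chromosome 5 and its first base is at 143909839 (GRCm38.p6). Pms2, which encodes a DNA mismatch repair protein, starts at 143910001 on the other strand, 162 bases away, so both genes are read outward from a shared window. The bases between both starts are shown because Aimp2 is the member that chose the group. Capitals mark the letters found by a search of both strands: CCGGAAG, a site of ETS family factors, which is read on the opposite strand and so appears reversed at -104, and AGGTCA, the core site of nuclear receptors, at -44. Positions are counted back from the Aimp2 start.
Aimp2, chr5:143909840-143910000, minus strand: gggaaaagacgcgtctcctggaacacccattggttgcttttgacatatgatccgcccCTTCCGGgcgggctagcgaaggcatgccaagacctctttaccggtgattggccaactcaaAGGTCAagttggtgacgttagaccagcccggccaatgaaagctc
PPARα pairs with RXR on 2 such core sites in a row with 1 base between them. AGGTCA alone was in 18.1% of the promoter windows of 27025 genes. The pair was searched only as 2 exact copies of AGGTCA with 1 base between. It was in 0.0481% of these genes, among them none of the 20 members with an entry. A pair this rare would be missing from most sets of 20 windows. Pairs with other letters were not searched, so this absence says little about PPARα sites in the members.

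Pms2, on the other side of this stretch, had 1310 and 781 in MCK-PPARa muscle and 1426 and 2030 in NTG muscle. Both MCK-PPARa arrays were below both NTG arrays (-0.71 ± 0.38, limma adjusted p = 0.93), but the replicate 1 arrays differed by -0.12 and the replicate 2 arrays by -1.31. Ccz1, a gene of vesicle trafficking a little further along the chromosome, differed by -0.61 ± 0.35 without overlap (limma adjusted p = 0.96), and Eif2ak1, the haem-regulated Eif2 kinase on the other side of Aimp2, by 0.12 ± 0.40 (limma adjusted p = 0.99). None of these neighbours passed the test. They were looked up after the Aimp2 values were known.

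Eef1e1 and Aimp1 are the other scaffolds. Eef1e1 read 1969 and 2605 in MCK-PPARa muscle and 3773 and 3540 in NTG muscle. The groups did not overlap and the difference was -0.68 ± 0.30, or 1.6-fold lower in MCK-PPARa muscle (limma adjusted p = 0.89), with -0.92 and -0.43 between the replicate 1 and the replicate 2 arrays. Aimp1, the scaffold whose released form is also a cytokine, read 2916 and 4628 in MCK-PPARa and 3671 and 3126 in NTG muscle, and the groups overlapped (0.12 ± 0.33, limma adjusted p = 0.99). The Aimp1 difference was -0.33 between the replicate 1 arrays and 0.56 between those of replicate 2. Leaving aside Aimp2, which chose the group, Eef1e1 and Aimp1 were both below 0 on the replicate 1 arrays. Only Eef1e1 was below 0 on the replicate 2 arrays.

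Across the 28 members tested, none passed an adjusted p of 0.05 in limma, against 5 of 8400 genes or 0.0595% of all genes tested. At an unadjusted p under 0.05 there was 1 member, Aimp2, whose selection fixes that count, against 486 genes or 5.79% of all genes tested. Both MCK-PPARa arrays were below both NTG arrays for 6 members, against 13.8% of all genes tested, and above both for 2 members, against 20.3% of all genes tested. Without Aimp2, the 27 others included 5 lower and 2 higher members of this kind, none with an unadjusted p under 0.05, and their adjusted p ran from 0.89 to 1.0. Their median difference was -0.094, with 16 below 0, beside a median of 0.053 over all genes tested, of which 44.6% were below 0. The median SE of the members was 0.34, so differences of the size seen for most of them were within the error of 2 arrays per group.

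**Figure D2:**
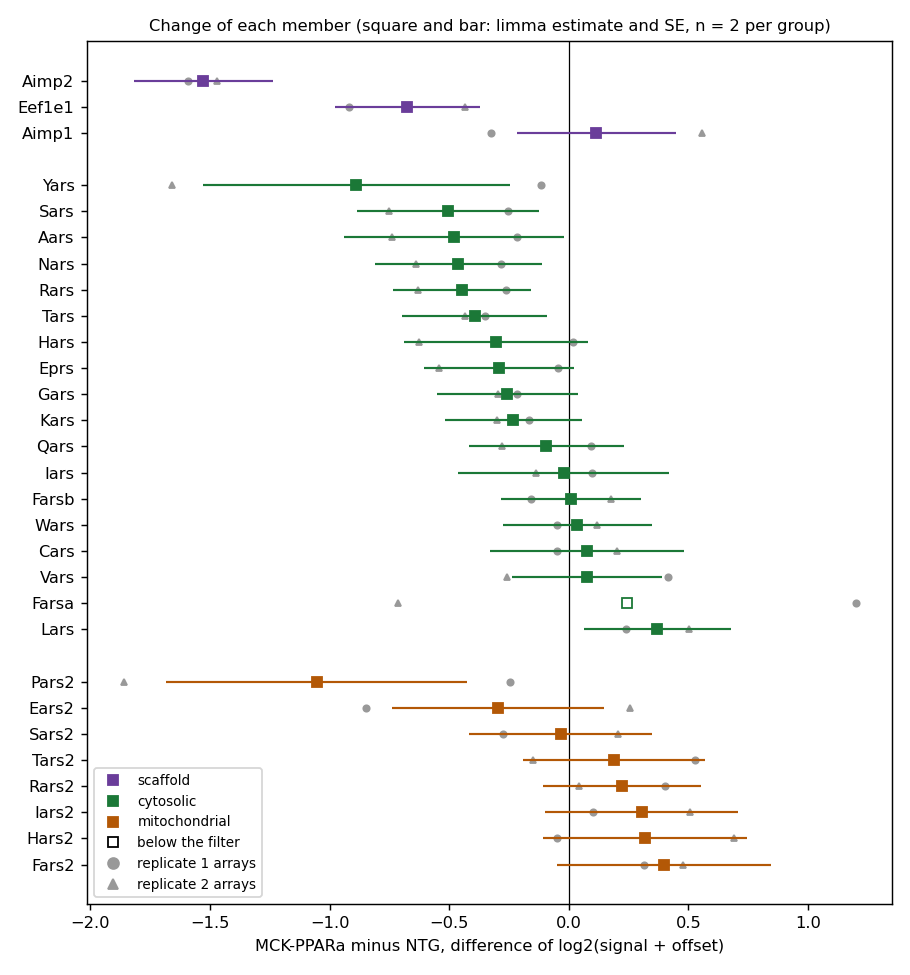
Difference of log2(signal + offset), MCK-PPARa minus NTG, for the 29 members by class; squares and bars are the limma estimate and its SE (n = 2 per group), circles and triangles the difference within the replicate 1 and the replicate 2 arrays. Aimp2 lies farthest left at -1.53, 12 of 17 cytosolic synthetases tested are below 0 and 5 of 8 mitochondrial ones above it, and Farsa, an open square, was not tested.

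Of the 17 cytosolic synthetases tested, 12 were below 0 and 5 above it, with a median of -0.26 and a range from -0.89 to 0.37. None passed the limma test (adjusted p from 0.96 to 1.0). Both MCK-PPARa arrays were below both NTG arrays for 3 of them and above both for 1, beside 13.8% and 20.3% of all genes tested. Within the replicate 1 arrays their median was -0.12, and within the replicate 2 arrays it was -0.30. The median was -0.10 without MCK-PPARa replicate 2 and likewise without NTG replicate 2.

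Yars, which charges tyrosine, had the largest difference among the cytosolic enzymes. It read 2327 and 478.5 in MCK-PPARa muscle and 2530 and 1650 in NTG muscle (-0.89 ± 0.64, limma adjusted p = 0.96). The value rested on one transgenic array: the replicate 1 arrays differed by -0.12, the replicate 2 arrays by -1.66, and the difference was 0.18 without MCK-PPARa replicate 2. Without MCK-PPARa replicate 1 it was -1.96 with a limma adjusted p of 0.0043, where the lone transgenic array is assumed to vary like the controls.

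Sars charges serine and, as a first step, the transfer RNA of selenocysteine. It read 6653 and 3475 in MCK-PPARa muscle and 7951 and 5899 in NTG muscle (-0.50 ± 0.38, limma adjusted p = 0.96), with overlap between the groups. Leaving out MCK-PPARa replicate 1 gave a Sars difference of -0.97, and leaving out MCK-PPARa replicate 2 gave -0.042. Aars, the alanyl enzyme, read 3364 and 5602 in MCK-PPARa and 3924 and 9384 in NTG muscle (-0.48 ± 0.46, limma adjusted p = 0.97), and its groups overlapped as well. On this brightest probe set the Aars replicates differed by more than the genotypes, by 0.725 in MCK-PPARa and 1.24 in NTG muscle. Without NTG replicate 2 its Aars difference was 0.14. A second Aars probe set read 3431 and 3334 in MCK-PPARa and 4253 and 3864 in NTG muscle. It had closer replicates, no overlap and a difference of -0.26. Nars, the asparaginyl enzyme, read 3555 and 4628 in MCK-PPARa and 4344 and 7241 in NTG muscle (-0.46 ± 0.35, limma adjusted p = 0.96). The Nars difference was -0.83 without NTG replicate 1 and -0.097 without NTG replicate 2. Its second probe set gave -0.39.

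Rars and Tars had smaller differences with closer replicates. Rars, the arginyl enzyme of the complex, read 3798 and 3558 in MCK-PPARa muscle and 4570 and 5547 in NTG muscle (-0.45 ± 0.29, limma adjusted p = 0.96). Tars, which charges threonine, read 1307 and 1194 in MCK-PPARa muscle and 1683 and 1636 in NTG muscle (-0.39 ± 0.30, limma adjusted p = 0.96). Neither gene's groups overlapped, and the Tars difference was much the same within the replicate 1 arrays (-0.35) and the replicate 2 arrays (-0.43). On the brightest probe sets, Kars, the lysyl enzyme, was the only other cytosolic gene with both transgenic arrays below both controls. It read 4419 and 3687 in MCK-PPARa and 4963 and 4547 in NTG muscle (-0.23 ± 0.29). It is named for that pattern, seen in its values.

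Lars, the leucyl enzyme of the complex, had the highest difference of the 5 cytosolic enzymes above 0 and was also named after its values were seen. It read 3358 and 4600 in MCK-PPARa muscle and 2832 and 3231 in NTG muscle, so both transgenic arrays were above both controls (0.37 ± 0.31, limma adjusted p = 0.96). Hars (histidine), Eprs (the joined glutamyl and prolyl enzyme), Gars and Qars (glutamine) lay between -0.30 and -0.094. Iars (isoleucine), Farsb (the beta subunit of the phenylalanyl enzyme), Wars (tryptophan), Cars (cysteine) and Vars (valine) lay between -0.022 and 0.077. Each of these 9 genes had overlapping groups on its brightest probe set.

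The cytosolic enzymes inside and outside the complex had overlapping ranges. The 6 enzymes of the complex that were measured, Eprs, Iars, Kars, Lars, Qars and Rars, had a median of -0.16 with 5 below 0. The 11 enzymes outside the complex had a median of -0.30 with 7 below 0. With the 3 scaffolds, the 9 genes of the complex had a median of -0.23 and 7 below 0, a count that includes Aimp2.

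Of the 8 mitochondrial synthetases, 3 were below 0 and 5 above it, with a median of 0.21 and a range from -1.05 to 0.40. None passed the limma test (adjusted p from 0.96 to 1.0). Pars2, the prolyl enzyme of mitochondria, read 621 and 137 in MCK-PPARa muscle and 748 and 667 in NTG muscle (-1.05 ± 0.63, limma adjusted p = 0.96). The groups did not overlap, but the low replicate 2 array of MCK-PPARa carried the difference. At 137 its signal lay below the filter signal of 423, in the dim range. The difference was -0.24 between the replicate 1 arrays and -0.17 with the MCK-PPARa replicate 2 array left out.

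The mitochondrial enzymes above 0 also varied between replicates. Fars2, which charges phenylalanine, read 2412 and 5051 in MCK-PPARa muscle and 1925 and 3605 in NTG muscle (0.40 ± 0.45, limma adjusted p = 0.97). Hars2, which charges histidine, read 700 and 1470 in MCK-PPARa muscle and 727 and 888 in NTG muscle (0.32 ± 0.43, limma adjusted p = 0.98). In both genes the replicate 2 arrays were the brighter ones in each genotype, and the groups overlapped. Without MCK-PPARa replicate 2 the difference was -0.13 for Fars2 and -0.18 for Hars2, and for Fars2 it was -0.044 without NTG replicate 1.

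Iars2, the isoleucyl enzyme, read 716 and 688 in MCK-PPARa muscle and 663 and 465 in NTG muscle (0.30 ± 0.40, limma adjusted p = 0.98). It was the only mitochondrial enzyme with both transgenic arrays above both controls, and its difference was 0.075 without NTG replicate 2. Ears2, the glutamyl enzyme, read 406 and 732 in MCK-PPARa and 782 and 604 in NTG muscle (-0.30 ± 0.44, limma adjusted p = 0.98), a difference that was 0.083 without MCK-PPARa replicate 1. Rars2, the arginyl enzyme, read 2699 and 1797 in MCK-PPARa and 2027 and 1745 in NTG muscle (0.22 ± 0.33, limma adjusted p = 0.98), and -0.063 without MCK-PPARa replicate 1. The remaining pair, Tars2 (threonine) at 0.19 and Sars2 (serine) at -0.034, had overlapping groups.

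Set against each other, the median difference of the cytosolic synthetases was 0.46 lower on the log2 scale than that of the mitochondrial ones (-0.26 against 0.21). Within the replicate 1 arrays this gap was -0.14, and within the replicate 2 arrays -0.53. It rested in part on single arrays: without MCK-PPARa replicate 2 it was 0.045, in the other direction, without NTG replicate 1 it was -0.18, and without NTG replicate 2 it was -0.25. The medians lay on either side of the median of all genes (0.053). As a separate measure, the cytosolic median log2 level exceeded the mitochondrial one by 1.73 and 1.22 on MCK-PPARa replicates 1 and 2. On NTG replicates 1 and 2 it did so by 1.77 and 1.61. The SD of this level difference between replicates was 0.26, which is not an SD of the gap. With 2 arrays per group the gap had no test.

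**Figure D3:**
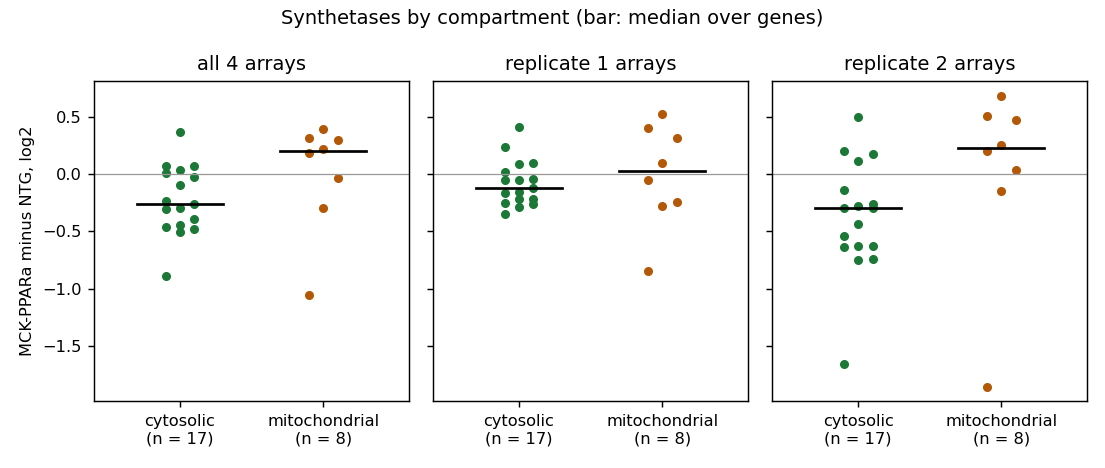
Difference of log2(signal + offset), MCK-PPARa minus NTG, for the 17 cytosolic and 8 mitochondrial synthetases tested, over all 4 arrays, the replicate 1 arrays and the replicate 2 arrays; each point is a gene and each bar a median. The cytosolic median is below the mitochondrial one in all 3 panels (-0.26 against 0.21, -0.12 against 0.025 and -0.30 against 0.23), and the points of the compartments overlap in each panel.

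The promoters of the cytosolic enzymes were read for the composite element of Atf4 and C/EBP factors, since Atf4 is a known regulator of many of them. RefSeq windows (GRCm38.p6) from 250 bases before to 50 bases after the start were matched to 20 of the 29 members by symbol. TGATGNAA, searched on both strands, was in 5 of these 20 windows or 25%, against 4.51% of the windows of all 27025 genes. All 5 belong to cytosolic enzymes (5 of 11 with a window), and none to the 6 mitochondrial enzymes with one. For each gene, the 30 bases around the element nearest the start are given below from 5′ to 3′ on the strand of the gene, with the element in capitals. It appears reversed in all but Yars.
Yars, chr4:129189895-129189924, plus strand: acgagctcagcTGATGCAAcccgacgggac
Gars, chr6:55037960-55037989, plus strand: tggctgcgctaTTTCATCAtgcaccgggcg
Aars, chr8:111033840-111033869, plus strand: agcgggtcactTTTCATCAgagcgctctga
Iars, chr13:49682126-49682155, plus strand: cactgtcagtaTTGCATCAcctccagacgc
Tars, chr15:11399655-11399684, minus strand: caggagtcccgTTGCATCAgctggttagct
On their brightest probe sets the 5 genes with the element were all below 0, from -0.89 in Yars to -0.022 in Iars (median -0.39). A second probe set gave -0.26 for Aars and 0.098 for Iars. Yars was at 0.18 without MCK-PPARa replicate 2 and Aars at 0.14 without NTG replicate 2, while Tars stayed below 0 in every setting run. The 5 tested cytosolic genes with a window and without these letters (Sars, Eprs, Kars, Qars and Farsb) had 4 below 0 and a median of -0.23, so the sets overlapped. A match of letters is a description of the window and not of binding.

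Other motifs were counted in the same 20 windows, on both strands. The ETS site CCGGAAG was in 8 or 40% of them (Aimp1, Aimp2, Farsa, Gars, Kars, Rars2, Sars and Sars2), against 9.93% of all windows. The E-box CACGTG was in 5 or 25% (Aars, Ears2, Farsb, Iars and Tars), against 8.09%. The core site AGGTCA was in 3 or 15% (Aimp2, Eprs and Fars2), against 18.1%, and the Nrf1 core GCATGCGC was in 1 or 5% (Rars2), against 3.05%. No listed motif contains another, except that the pair of core sites contains the single one. The motifs were chosen after the members' values were seen.

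Like Aimp2, several members start close to a gene on the other strand that is read outward. Such a partner within 1000 bases was found for 8 of the 20 members with a window, or 40%, against 3311 of 27025 genes or 12.3%. The distances ran from 5 bases, between Kars and the telomere protein gene Terf2ip, to 324 bases, between Yars and S100pbp. Of the 8 partners, 4 were among the genes tested, and the 3 besides Pms2 had overlapping groups. Orc3, of the origin recognition complex, differed by 0.24 and its neighbour Rars2 by 0.22. Ubfd1 differed by -0.12 and its neighbour Ears2 by -0.30. Mrps12, a mitochondrial ribosomal protein, differed by -0.013 and its neighbour Sars2 by -0.034. The search for partners was added after the Aimp2 values were known.

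The factors around charging were described from lists, chosen with earlier results of these data known. Of 15 helpers of transfer RNA charging and processing, 11 were on the array and 7 were tested: 2 were below 0 and 5 above it, with a median of 0.31 and none past an adjusted p of 0.05. Pstk, the kinase that phosphorylates seryl-tRNA on the way to selenocysteine, had the smallest p. It read 1777 and 976 in MCK-PPARa muscle and 2776 and 2338 in NTG muscle (-0.92 ± 0.37, limma adjusted p = 0.79), with no overlap. Elac2, which trims the 3′ end of transfer RNAs, differed by 0.49, Aarsd1, an editing factor for alanyl-tRNA, by 0.47, and Dtd1, which removes D-amino acids from transfer RNA, by 0.38.

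Elongation and other translation factors, some of which carry charged transfer RNA to the ribosome, showed small differences. The 6 cytosolic ones tested had 2 below 0 and a median of 0.10, with Eef1a1 at 0.33, the muscle form Eef1a2 at 0.25, and the exchange factor subunits Eef1b2 and Eef1d at -0.29 and -0.26. All 5 mitochondrial translation factors tested were above 0 (median 0.29), where 44.6% of all genes tested were below 0. The largest of these was Gfm1, mitochondrial elongation factor G, at 4033 and 6246 in MCK-PPARa muscle and 2329 and 4184 in NTG muscle (0.67 ± 0.39, limma adjusted p = 0.96), followed by Mtif2, Tufm and Mrrf at 0.32, 0.29 and 0.29. Gfm2 was at 0.014, with -0.30 between the replicate 1 arrays, and Mrrf was at -0.027 between the replicate 2 arrays. The groups overlapped for all 5 mitochondrial factors, and none in either list passed the test.

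The Atf4 pathway had 28 genes tested of 35 on the array, 14 below 0 and 14 above it, with a median of -0.026. None passed an adjusted p of 0.05, and at an unadjusted p under 0.05 there were 2 lower and 2 higher genes of the 28, beside 5.79% of all genes tested. Gpt2, the mitochondrial alanine transaminase, read 2337 and 2204 in MCK-PPARa muscle and 6314 and 9161 in NTG muscle (-1.72 ± 0.31, limma adjusted p = 0.16). Its other probe sets gave -1.34 and -1.08. Atf4 itself read 4571 and 3895 in MCK-PPARa muscle and 8653 and 8103 in NTG muscle (-0.98 ± 0.28, limma adjusted p = 0.48). The replicates were close and the difference was -0.91 and -1.04 between the replicate 1 and the replicate 2 arrays. A second Atf4 probe set gave -1.94, and the dimmest, at 38.3 to 252 on the 4 arrays, gave 0.96.

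The higher pair in this list were stress-induced genes. Their NTG signals were all below the filter signal of 423, so both passed the filter only through the MCK-PPARa arrays. Their p-values and their part in the count above are therefore descriptions and no support for a difference. Trib3, a pseudokinase, read 680 and 1094 in MCK-PPARa muscle and 341.5 and 329 in NTG muscle (1.22 ± 0.44, limma adjusted p = 0.69). A second, dim Trib3 probe set read 87.7 and 87.1 in MCK-PPARa and 111 and 124 in NTG muscle, a difference of -0.26. Atf3, a transcription factor, read 500 and 1400 in MCK-PPARa muscle and 406 and 107 in NTG muscle (1.68 ± 0.68, limma adjusted p = 0.80), with 0.26 for the replicate 1 arrays and 3.10 for those of replicate 2. Groups without overlap were found for 7 lower and 5 higher genes of the 28, beside 13.8% and 20.3% of all genes tested. The list that holds Atf4 thus had no common direction.

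**Figure D4:**
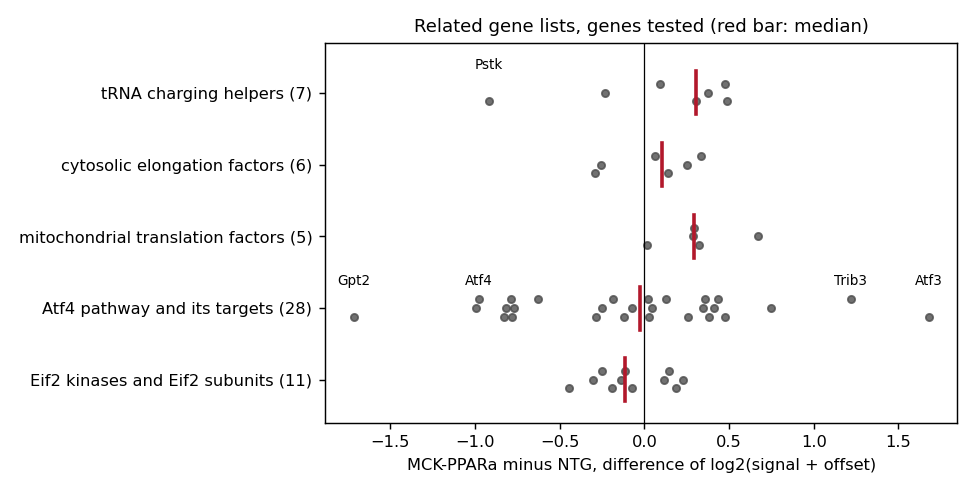
Difference of log2(signal + offset), MCK-PPARa minus NTG, for the tested genes of 5 related lists; each point is a gene, each red bar a median, and named points are those with an unadjusted p under 0.05. The 5 mitochondrial translation factors lie above 0, with the lowest, Gfm2, at 0.014. The Atf4 list spans from -1.72 (Gpt2) to 1.68 (Atf3) around a median of -0.026.

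Upstream of Atf4, the 11 genes tested among the Eif2 kinases, Eif2 and Eif2b subunits and their regulators had 7 below 0 and a median of -0.11. Their range was narrow, from -0.44 for Eif2ak3, the kinase of the endoplasmic reticulum, to 0.23 for Ppp1r15b, a subunit of the Eif2 phosphatase. Eif2s2, the beta subunit of Eif2, was at -0.25 and Impact, an inhibitor of Gcn2, at -0.31. None had an unadjusted p under 0.05. Eif2ak4, which encodes Gcn2, read 19.6 and 40 in MCK-PPARa and 27.5 and 61.9 in NTG muscle, and did not pass the filter.

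The array holds 52 probe sets for the 29 members, and 15 members have more than 1. In 8 of these 15, every probe set was on the same side of 0, among them Aimp2, Aars, Eprs, Nars and Sars. Farsb and Qars were the widest exceptions. Farsb had 0.0099 for its brightest probe set and -1.0, 0.15 and -0.64 for the others. The probe set at -1.0 read 1658 and 1361 in MCK-PPARa and 2574 and 3675 in NTG muscle, so its groups did not overlap. Qars had -0.094 for its brightest probe set and -0.46, 0.75 and -0.36 for the others. In Aars, Eprs and Nars the brightest probe set overlapped, while another had both MCK-PPARa arrays below both NTG arrays. These others gave -0.26 for Aars, -0.39 for Nars and -0.50 for Eprs. The Eprs one read 4440 and 4604 in MCK-PPARa and 5495 and 7539 in NTG muscle. The mean of the 4 arrays lay below the filter for 9 of the 52 probe sets.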

How the data were processed

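Total RNA of 2 MCK-PPARa and 2 NTG gastrocnemius samples was hybridised to 1 array each. The authors deposited linear signal intensity values for 22690 probe sets, made with MAS5, which turns the probes of a set into 1 signal, per the submitters' processing notes. For its version and detection calls, the sources used here give nothing. The trimmed means of the arrays were equal, so no normalization was added. MAS5 signals are noisy at low levels. Values were taken as log2(signal + 64.2), an offset of 10% of the median, which understates the change of dim genes. Probe sets with a mean log2 value over the 4 arrays below the 40th percentile of those other than the 64 controls were left out. Each gene was read from its brightest single-symbol probe set, and 8400 genes remained. The groups were compared in limma 3.58.1 under R 4.3.3 with a two-sided moderated test, a variance trend and Benjamini-Hochberg adjustment over the 8400 genes (threshold 0.05, 7.71 degrees of freedom, 2 of them residual). The fit was tested on simulated data.

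The members and lists were chosen with earlier results of these data known. Values on all 4 arrays were given for Aimp2, any other member with an unadjusted p under 0.05, and the 6 largest absolute differences of the cytosolic and of the mitochondrial class. Other members named with such values were chosen after these were seen. From each list up to 4 genes of smallest p were named. Alternatives were the offset, the filter, the normalization, the variance trend, the mean of all probe sets, a block on the replicate number, each array left out, and the 5 genes that match the letters. One sequence is not reported here.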

Additional observations from a re-analysis of the deposited data

How the results depend on the processing

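With 2 arrays per group the fit had little power, and detection calls, which would show which dim probe sets were above background, were not used here. The groups share replicate numbers 1 and 2, whose deviations correlated across genes (r = 0.47), but nothing in the labels says what is shared. With a replicate block in limma, the count of members past an adjusted p of 0.05 was 1 in place of 0. That member was Aimp2, on which the group was chosen, and the count over all genes was 194 in place of 5. Leaving out 1 array gave a count of 0 to 1, the 1 being Yars without MCK-PPARa replicate 1, among 69 to 159 genes, and a gap between cytosolic and mitochondrial medians of -0.56 to 0.045. The same settings gave Yars -1.96 to 0.18, Aars -1.10 to 0.14, Ears2 -0.68 to 0.083, Rars2 -0.063 to 0.51, Fars2 -0.13 to 0.92 and Hars2 -0.18 to 0.82. For Aimp2 and the 12 synthetases described in full, the direction held under the offsets, filters, normalizations, variance trend, probe set and member settings, while other genes were not rerun. The median of the cytosolic class stayed below 0 in every setting run, at -0.27 to -0.10 with 1 array left out, and that of the mitochondrial class was below 0 without MCK-PPARa replicate 2 (-0.15) and without NTG replicate 1 (-0.085). Pars2, Iars2 and Ears2 were not tested with the filter at the 60th percentile. Median centring moved the median of all genes to -0.049 and that of the members to -0.26. The causes were not tested.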

Other observations

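The genes that match the letters of the rule without being synthetases gave these values. Irs1, the insulin receptor substrate, read 8923 and 17097 in MCK-PPARa muscle and 18245 and 19402 in NTG muscle, so the groups did not overlap (-0.60 ± 0.37, limma adjusted p = 0.96). Most of this lay between the replicate 1 arrays (-1.03, against -0.18 between the replicate 2 arrays). Arsa read 1256 and 1771 in MCK-PPARa and 1080 and 1210.5 in NTG muscle, also without overlap (0.37 ± 0.33, limma adjusted p = 0.97). Mrs2 and Rrs1 differed by -0.20 and 0.090, with overlapping groups. Irs2 was too dim for the test, at 294 and 1052 in MCK-PPARa and 84.2 and 690 in NTG muscle.

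Some helpers of transfer RNA charging were below the filter and were not tested. Sepsecs, the enzyme that follows Pstk in making selenocysteinyl-tRNA, read 243 and 375 in MCK-PPARa muscle and 46 and 71.6 in NTG muscle, so both transgenic arrays were above both controls, where Pstk had both below. Slc7a11, the cystine transporter of the Atf4 list, read 82.4 and 218 in MCK-PPARa and 289 and 618 in NTG muscle. These genes were picked after their values were seen.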
